A study of Mus musculus with 10 samples.

Results

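Trp53inp2 and Trp53inp1 are the 2 mouse genes of the tumor protein p53-inducible nuclear protein family, and the data give 3 transcript rows for them, 1 for Trp53inp2 and 2 for Trp53inp1, among 17292 transcripts of 13698 named genes. They were chosen because Trp53inp2 had the smallest p of all genes between neurites and soma, and Trp53inp1 was added as its paralog. Their neurite and soma values are therefore given as a description, with no test. RNA was sequenced from neurites and soma of Neuro2a (N2A) cells, a mouse neuroblastoma line, grown on a porous membrane through which neurites extend. The cells carried 1 of 5 plasmids: the motorless tail of the kinesin Kif1bα, the tail of Kif1c, a DMPK fragment with an expanded CTG repeat (CTG480), the tail of Kif1bβ, or the DMPK fragment without repeats (CTG0, labelled DMPKS). In the study, the Kif1bα tail, the Kif1c tail and CTG480 are perturbations, the Kif1bβ tail is the control for the other tails and CTG0 is the control for CTG480. All transfections were transient, in serum-free medium during neurite growth, and the wells of a plate were pooled, so each of the 10 libraries is the sole library of its transfection and fraction.

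Both proteins move between nucleus and cytoplasm. TP53INP2, also called DOR, is a coactivator of nuclear hormone receptors such as the thyroid hormone receptor, and leaves the nucleus when autophagy is induced. It binds the ubiquitin-like LC3 and GABARAP proteins of the autophagosome membrane and the membrane protein VMP1. TP53INP1 is a stress protein whose gene is switched on by p53, acts with the kinases HIPK2 and PKCδ, and also binds LC3. The mRNA of rat Tp53inp2 is known as an abundant axonal transcript of sympathetic neurons.

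The binding to LC3 and GABARAP runs through an LC3-interacting region. Its core was searched here only as a tryptophan, followed after 2 residues by isoleucine, leucine or valine. Each coding sequence held 1 such match. It lay at codons 35 to 38 of 221 in Trp53inp2 (chr2:155385434-155385463, plus strand, GRCm38) and at codons 31 to 34 of 239 in Trp53inp1 (chr4:11164539-11164568, plus strand), and these stretches are shown because they encode the function both genes share, with the 4 codons of the match in capitals.
Trp53inp2: gtggatggcTGGCTCATCATCgacctacag
Trp53inp1: gatgatgaaTGGATTCTTGTTgacttcata

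The coding sequences of the pair were aligned and compared in gap-free windows of 30 bases that start at a codon in both genes. The most alike stretch had 27 of 30 bases identical, from codon 100 of Trp53inp2 (chr2:155386054-155386083) and codon 123 of Trp53inp1 (chr4:11165344-11165373). It is shown, with identical bases in capitals, because it bears on whether reads could be assigned to the wrong paralog.
Trp53inp2: CTCATTGAgCATCCCAGCATGTCcGTtTAT
Trp53inp1: CTCATTGAaCATCCCAGCATGTCtGTcTAT
Over the whole transcripts the longest shared run was 16 bases, and 58.1% of 639 aligned coding positions were identical. No other annotated gene overlaps either gene.

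Trp53inp2 mRNA was about 2.2 times as abundant in neurites as in soma in these cells. Its neurite levels were 128 normalized TPM with the Kif1bα tail, 104 with the Kif1c tail, 115 with CTG480, 138 with the Kif1bβ tail and 122 with CTG0. In soma it had 57.5 TPM with the Kif1bα tail, 51.6 with the Kif1c tail, 54.7 with CTG480, 57.2 with the Kif1bβ tail and 57.1 with CTG0. The fractions did not overlap, and the lowest neurite library had 1.81 times the level of the highest soma library. Trp53inp2 was chosen for its p between these fractions, so this separation carries no weight. Neurite levels averaged 121.5 ± 12.9 TPM and soma levels 55.6 ± 2.49 TPM (SD, n = 5 transfections each), so the neurite libraries varied more (CV 10.6%) than the soma libraries (CV 4.48%). The values are normalized within and between libraries and give no amount per cell, so less RNA per cell body or neurite and fewer of them cannot be told apart.

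**Figure D1:**
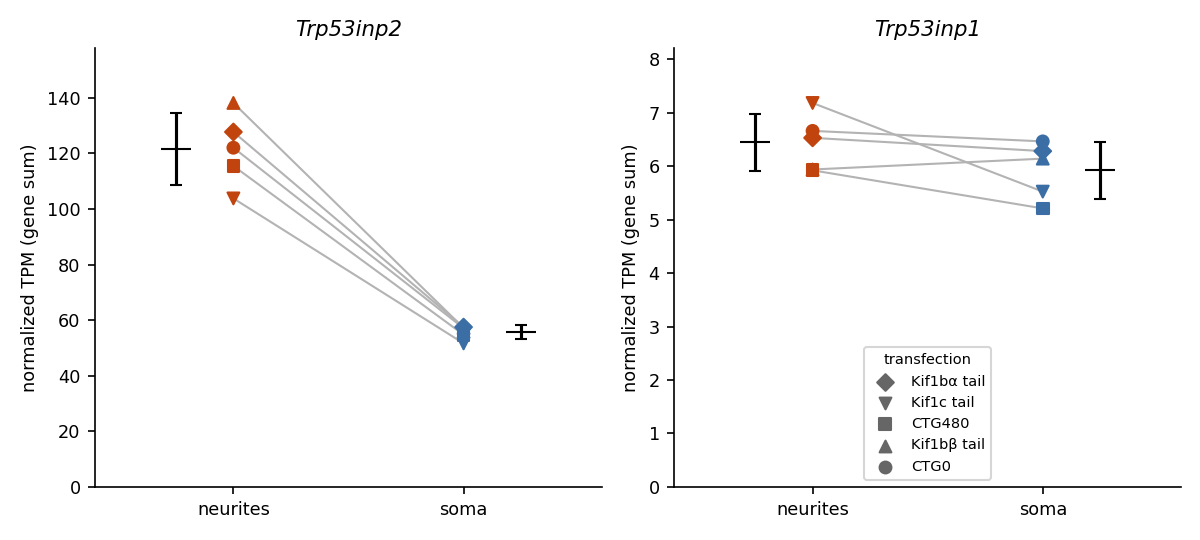
Normalized TPM of Trp53inp2 (left) and Trp53inp1 (right) in neurites and soma, with a symbol per transfection, lines joining the fractions of a transfection, and bars for the mean ± SD (n = 5). Trp53inp2 lay between 104 and 138 TPM in neurites and between 51.6 and 57.5 TPM in soma, while the Trp53inp1 ranges overlapped at 5.92 to 7.18 TPM in neurites and 5.21 to 6.46 TPM in soma.

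The localization ratio, log2(neurite/soma) with 0.1 TPM added to both values, was 1.12 ± 0.10 for Trp53inp2 (SD, n = 5). It was 1.15 with the Kif1bα tail, 1.01 with the Kif1c tail, 1.08 with CTG480, 1.27 with the Kif1bβ tail and 1.09 with CTG0. Among the 12123 genes whose mean reached 1 TPM, this was the 35th highest mean ratio, and by its lowest ratio in any transfection Trp53inp2 was 3rd from the top. Of the 5527 genes whose mean reached 20 TPM it ranked 7th. The SD of its 5 ratios was above that of 22.3% of genes (median of all genes 0.16), and its mean of 88.5 TPM was above that of 90.1% of genes. The genes with the next smallest p were Chgb, which encodes the secretory granule protein chromogranin B (mean ratio −1.08, SE 0.050), and Atp5e, which encodes a subunit of the mitochondrial ATP synthase (0.63, SE 0.038). The SE for Trp53inp2 was 0.045.

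**Figure D2:**
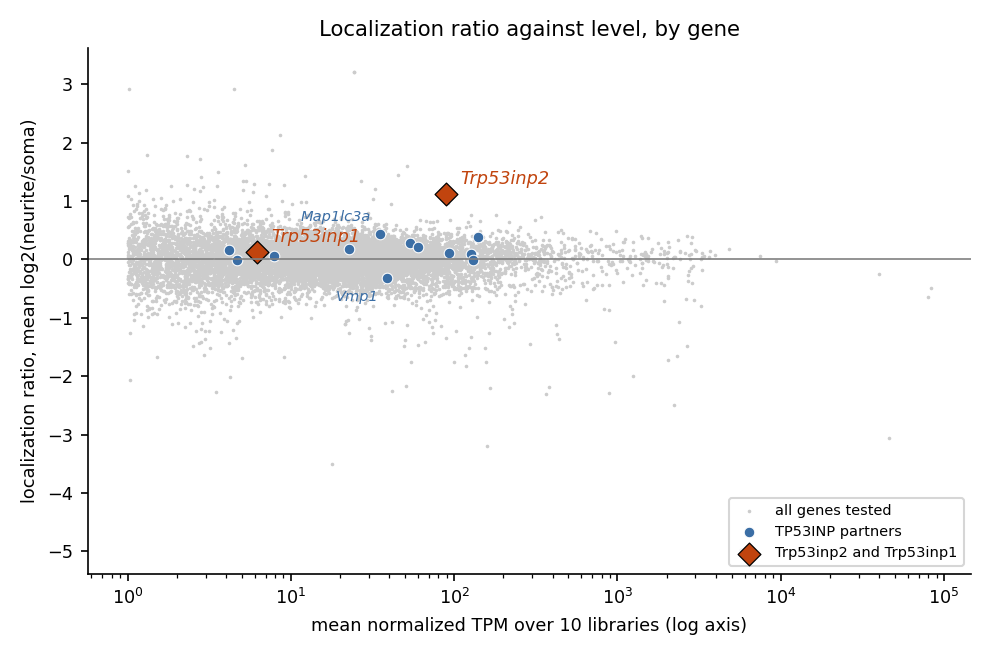
Mean localization ratio over 5 transfections against the mean normalized TPM over 10 libraries (log axis) for 12123 genes, with Trp53inp2 and Trp53inp1 as diamonds and the genes of their protein partners as blue points. Trp53inp2 stands at 1.12 and 88.5 TPM, 7th of the 5527 genes whose mean reached 20 TPM, and Trp53inp1 at 0.12 and 6.19 TPM, within the cloud.

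Trp53inp1 mRNA was low and had close to equal levels in the fractions. Its gene sum in neurites was 6.53 TPM with the Kif1bα tail, 7.18 with the Kif1c tail, 5.92 with CTG480, 5.94 with the Kif1bβ tail and 6.66 with CTG0. In soma the sums were 6.28 TPM with the Kif1bα tail, 5.52 with the Kif1c tail, 5.21 with CTG480, 6.14 with the Kif1bβ tail and 6.46 with CTG0. The fractions overlapped, and the ratio was above 0 in 4 of 5 transfections, with the Kif1bβ tail as the exception (−0.05). The mean ratio was 0.12 ± 0.16 (SD, n = 5), with 6.45 ± 0.53 TPM in neurites and 5.93 ± 0.53 TPM in soma.

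The paralogs thus differed in both level and distribution. On the TPM scale, which is per transcript length, Trp53inp2 was 14.5 to 23.3 times as abundant as Trp53inp1 in neurite libraries and 8.83 to 10.5 times in soma libraries. Within each transfection the localization ratio of Trp53inp2 exceeded that of Trp53inp1, by 1.10 with the Kif1bα tail, 0.63 with the Kif1c tail, 0.89 with CTG480, 1.32 with the Kif1bβ tail and 1.05 with CTG0 (mean 1.00 ± 0.25, SD, n = 5). Since the pair was selected on the ratio of Trp53inp2, this difference has no test.

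The 2 transcript rows of Trp53inp1 behaved less steadily than their sum. NM_021897 had 4.43 TPM in neurites with the Kif1bα tail, 4.81 with the Kif1c tail, 1.97 with CTG480, 2.78 with the Kif1bβ tail and 2.07 with CTG0, against soma values of 4.18, 4.62, 2.42, 1.84 and 4.67 TPM in the same order. NM_001199105 had 2.10 TPM in neurites with the Kif1bα tail, 2.38 with the Kif1c tail, 3.95 with CTG480, 3.16 with the Kif1bβ tail and 4.59 with CTG0, against soma values of 2.10, 0.90, 2.79, 4.30 and 1.79 TPM. The share of NM_021897 in the sum ran from 31.0% to 67.8% in neurites and from 29.9% to 83.7% in soma. Between transfections the CV was 32.3% to 53.5% for the single rows but 8.24% in neurites for the sum, whose SD was 0.53 TPM in both fractions. Mean ratios were −0.14 ± 0.63 for NM_021897 and 0.53 ± 0.78 for NM_001199105 (SD, n = 5), so the rows differ in sign but each SD exceeds its mean. Both RefSeq rows were assigned to a single GENCODE model, and what separates them in sequence was not analysed here. Trp53inp2 has the single row NM_178111.

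**Figure D3:**
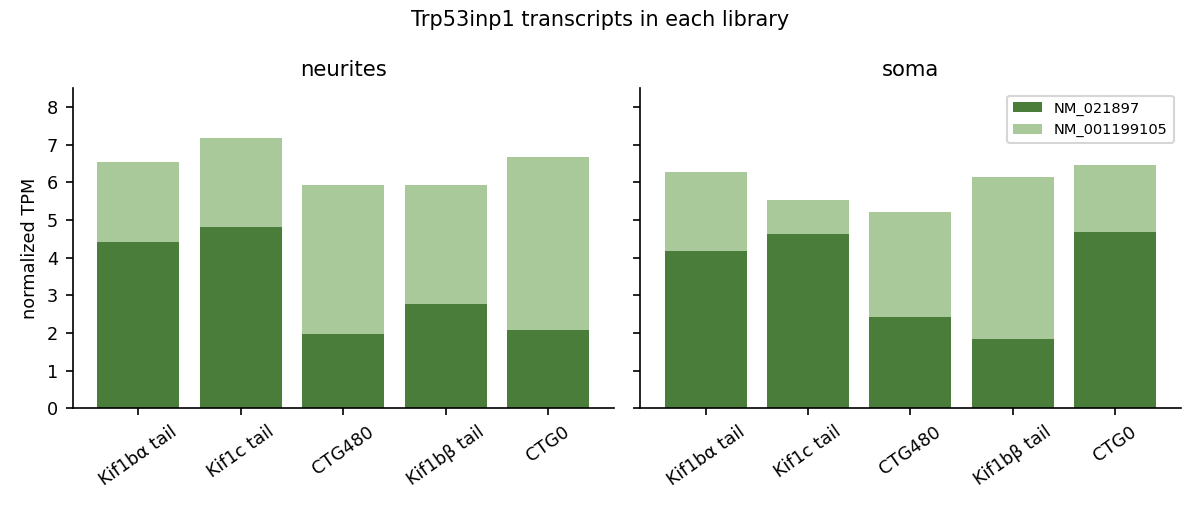
Normalized TPM of the 2 Trp53inp1 transcripts, stacked, in neurites (left) and soma (right) of each transfection, 1 library per bar. The stacks reach 5.21 to 7.18 TPM while the share of NM_021897 runs from 29.9% to 83.7%.

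Whether the perturbations shifted these mRNAs was tested on the localization ratios with limma, adjusted over all 12123 genes by Benjamini-Hochberg. The ratio of Trp53inp2 averaged 1.08 in the 3 perturbed and 1.18 in the 2 control transfections. That difference of −0.11 had a 95% confidence interval of −0.32 to 0.11 (adjusted p = 0.975, limma). Trp53inp1 averaged 0.20 in the perturbed and −0.0026 in the control transfections, a difference of 0.21 (interval −0.22 to 0.63, adjusted p = 0.975, limma). Shifts of up to 0.32 downward for Trp53inp2 and 0.63 upward for Trp53inp1 therefore lie within the intervals. The share of all genes called in this comparison was 0%, with 642 genes at an unadjusted p under 0.05.

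Levels, taken as the mean log2 value of both fractions, gave no call either. Perturbed minus control was −0.12 for Trp53inp2 (6.31 against 6.43; interval −0.29 to 0.05) and −0.05 for Trp53inp1 (2.63 against 2.68; interval −0.29 to 0.19), both at an adjusted p of 0.999 (limma). Here again 0% of genes were called, and 391 had an unadjusted p under 0.05. Kinesin tails minus DMPK fragments gave localization ratio differences of 0.06 for Trp53inp2 (1.14 against 1.09; interval −0.18 to 0.29; adjusted p = 0.992, limma) and 0.01 for Trp53inp1 (0.13 against 0.11; interval −0.44 to 0.47; adjusted p = 0.999, limma). In level the same division gave 0.01 for Trp53inp2 (interval −0.18 to 0.21) and 0.05 for Trp53inp1 (interval −0.19 to 0.29), both at an adjusted p of 0.996 (limma). The calls over all genes were 0% in both, with 518 and 632 genes at an unadjusted p under 0.05 for ratio and level. All these intervals rest on 3 against 2 transfections.

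**Figure D4:**
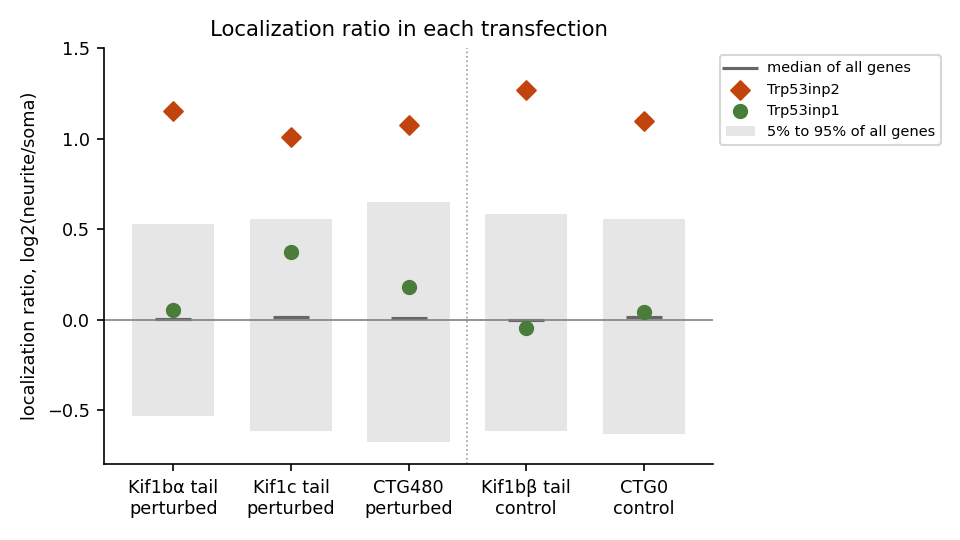
Localization ratio of Trp53inp2 (diamonds) and Trp53inp1 (circles) in each transfection, perturbed left of control, with grey bars from the 5% to the 95% quantile of 12123 genes and a dash at their median. Trp53inp2 lies above the bar in all 5 transfections (1.01 to 1.27) and Trp53inp1 inside it (−0.05 to 0.37).

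The study's own pairs have 1 library per fraction on each side and no replicate check. With CTG480 the localization ratio of Trp53inp2 was 0.02 below that with CTG0, a smaller difference than in all but 6.53% of genes. With the Kif1bα tail it was 0.12 below that with the Kif1bβ tail. With the Kif1c tail it was 0.26 below, where the neurite level differed by −0.41 and the soma level by −0.15 on the log2 scale, and 65.1% of genes had a smaller difference of either sign. The gene sum of Trp53inp1 had differences of the opposite sign in each pair. Its ratio was 0.14 higher with CTG480 than with CTG0, where 43.5% of genes had a smaller difference. It was 0.10 higher with the Kif1bα tail (33.5% of genes) and 0.42 higher with the Kif1c tail (80.5%) than with the Kif1bβ tail. The single rows did not keep to this sign. In the same order the differences were 0.86, −0.49 and −0.515 for NM_021897 and −0.83, 0.43 and 1.74 for NM_001199105. The tail pairs share the Kif1bβ libraries.

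Sequences that bear on the perturbations are the sites of Muscleblind-like (MBNL) proteins, RNA-binding proteins of splicing and mRNA localization that CTG repeat RNA sequesters. They bind TGCT, in which C may stand for either T, searched here on the transcript strand only and counted with overlaps. Trp53inp2 (chr2:155381814-155389850, plus strand) has 4 exons, a 5′ UTR of 255 nt, a coding sequence of 666 nt and a 3′ UTR of 3058 nt, and Trp53inp1 (chr4:11156431-11174379, plus strand) has 4 exons, 264 nt, 720 nt and 4420 nt. The densest 30-base window of each 3′ UTR is shown to compare such sites, in capitals, and each window held 3. It began at base 1 of the Trp53inp2 3′ UTR (chr2:155386793-155386822) and at base 150 of that of Trp53inp1 (chr4:11170109-11170138).
Trp53inp2: gCGCCccTGCTgcaccgcgaatccctCGCC
Trp53inp1: tttgTGCTgtgtttcacataaTGCCtTGCT

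The 3′ UTR of Trp53inp2 held 49 of these sites, or 16.0 per kb, which is denser than 72.3% of 13625 3′ UTRs of at least 100 nt. That of Trp53inp1 held 37, or 8.37 per kb, denser than 16.9%. At least 1 site was present in 98.1% of the 3′ UTRs. By quartile of density, the median localization ratio of transcripts ran from −0.04 in the lowest, where Trp53inp1 falls, over −0.02 and 0.04, the quartile of Trp53inp2, to 0.09 in the highest. Both 3′ UTRs belong to the longest quartile, whose median ratio was −0.05, and Trp53inp2 was longer there than 87.5% and Trp53inp1 than 95.2% of transcripts. GC content was 48.9% in the 3′ UTR of Trp53inp2 and 36.5% in that of Trp53inp1. By quartile of GC content, the median ratio of transcripts ran from −0.07 over −0.01 and 0.06 to 0.10 in the highest. Trp53inp1 fell in the lowest of these quartiles and Trp53inp2 in that with 0.06. Site density and GC content were not separated here. The AU-rich pentamer ATTTA, which marks many unstable mRNAs, occurred 1 time in Trp53inp2 and 8 times in Trp53inp1 (in 68.6% of 3′ UTRs). The Pumilio motif TGTANATA occurred 0 times in Trp53inp2 and 4 times in Trp53inp1 (in 25.3%). A match to these letters is not evidence of a bound site.

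Between neurites and soma, 15.8% of the 12123 genes were higher in neurites and 15.4% higher in soma at an adjusted p under 0.05 (limma, transfection as a block), and the median of all genes was 0.01. These calls depend on the scaling. After each library was rescaled to a common sum, the median of all genes moved to 0.35. Of 12156 genes then tested, 7746 were higher in neurites and 230 higher in soma. The directions below are therefore relative to the typical gene of the normalized table, and list counts are to be read against these shares. After rescaling, the ratio of Trp53inp2 was 1.46 and that of Trp53inp1 0.45.

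Several partners of the 2 proteins were modestly higher in neurites. Of 15 listed, 12 were tested, with a median ratio of 0.13. Of these, 5 were higher in neurites (between 4 and 5 when any transfection was left out) and 1 was higher in soma. Among all genes the shares were 15.8% and 15.4%. After rescaling the counts were 10 and 0, against 7746 and 230 of 12156 genes. Among the LC3 and GABARAP genes, whose proteins coat the autophagosome, Map1lc3a averaged 40.1 TPM in neurites and 29.6 TPM in soma (0.44, SE 0.075, adjusted p = 0.00524, limma). Gabarapl2 (0.39) and Gabarapl1 (0.28) were higher in neurites too, whereas Map1lc3b had a ratio of 0.10 and Gabarap of −0.01. Vmp1, needed for autophagosome formation at the endoplasmic reticulum, was lower in neurites, at 34.3 TPM against 42.7 TPM in soma (−0.31, adjusted p = 0.00257, limma). After rescaling Vmp1 had 0.03, below the median of all genes, 0.35. Of the receptors, Thra, the thyroid hormone receptor α, was higher in neurites (0.20) and Vdr, the vitamin D receptor, had 0.15. Prkcd, the kinase PKCδ, was higher in neurites (0.18), while Trp53 itself (0.10) and Traf6, a ubiquitin ligase (0.06), did not pass the test. Hipk2 was near 0 in some libraries (0 to 8.70 TPM in neurites, 0.00088 to 6.18 TPM in soma), so its ratio of −0.01 carries an SE of 1.42. Thrb, Trp73 and Casp8 had no row. None of the partners reached the ratio of Trp53inp2, but Trp53inp2 was chosen for its p in this contrast, so that carries no weight.

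Further along the autophagy pathway, 7 of 30 genes of autophagosome formation were higher in neurites and 3 were higher in soma (median 0.10). The shares of all genes were 15.8% and 15.4%. Rescaling gave counts of 26 and 0, against 7746 and 230 of 12156 genes. Among those called, the ratios of largest size were 0.51 for Wdr45, a phosphoinositide-binding protein, 0.49 for Atg101, a subunit of the ULK1 kinase complex, 0.34 for Atg4d, an LC3 protease, and −0.32 for Pik3r4, a subunit of the lipid kinase complex. The genes higher in soma, Rb1cc1, Pik3r4 and Wipi1, turned to positive ratios after rescaling (0.09, 0.01 and 0.21). These stayed below the rescaled median of all genes, 0.35. The count higher in soma was 1 without CTG0 and 1 without the Kif1bβ tail. Atg7, which encodes the enzyme that activates the LC3 proteins, had the highest ratio of the list, 0.60, but did not pass the test (adjusted p = 0.0891, limma). Of 13 autophagy receptors, Sqstm1, which encodes p62, was higher in neurites (499 TPM against 405 TPM in soma; 0.30), and Bnip3 of mitophagy (−0.36) and Wdfy3 of aggregate clearance (−0.22, but 0.12 after rescaling) were higher in soma. Neither count, 1 and 2 of 13, exceeded the share of all genes (15.8% and 15.4%). The receptors higher in soma numbered 1 without CTG0 or without CTG480, and rescaling gave 8 higher in neurites and 0 in soma.

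Trp53inp1 is itself a p53 target, and 10 of 27 other p53 targets tested were higher in neurites against 2 higher in soma (median 0.07). Across all genes these shares were 15.8% and 15.4%. Among those called, the largest were Phlda3, an inhibitor of AKT signalling (0.52), Cdkn1a, which encodes the cell cycle inhibitor p21 (0.51), and Gadd45a, a stress response gene (0.50), each higher in neurites, and Tnfrsf10b, a death receptor (−0.50), higher in soma. The count higher in neurites fell to 5 without CTG480 and to 5 without the Kif1bβ tail, and that higher in soma to 1 without CTG0, without CTG480 or without the Kif1bβ tail. After rescaling, 21 of 28 were higher in neurites and 0 in soma, against 7746 and 230 of 12156 genes.

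**Figure D5:**
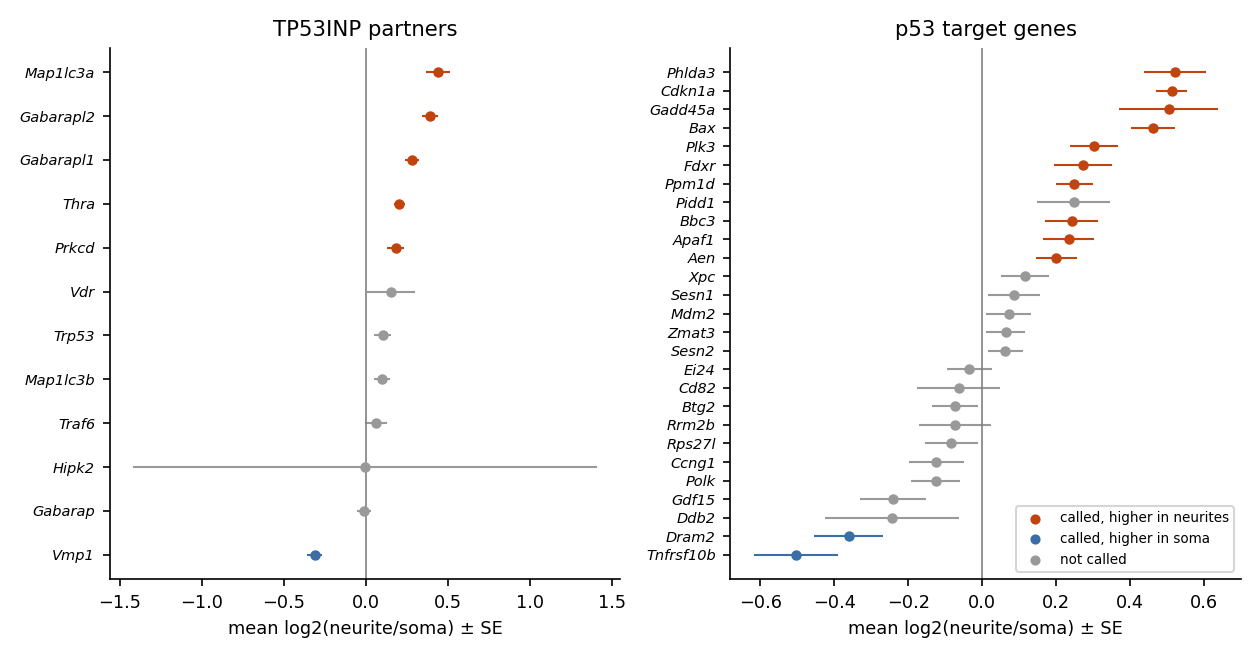
Mean localization ratio ± SE from limma (5 transfections) of the 12 partner genes (left) and 27 p53 target genes (right) tested, colored by call at an adjusted p under 0.05. Map1lc3a at 0.44 was the highest partner and Vmp1 at −0.31 the lowest, and the p53 targets ran from 0.52 for Phlda3 to −0.50 for Tnfrsf10b.

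TP53INP2 acts in the nucleus with the thyroid hormone receptor. Of 11 coregulators and partner receptors of that receptor, 0 were higher in neurites and 4 were higher in soma (median −0.14). The shares among all genes were 15.8% and 15.4%. Those higher in soma were the acetyltransferase genes Ep300 (−0.36) and Crebbp (−0.30), the coactivator gene Ncoa6 (−0.22) and the corepressor gene Ncor1 (−0.14). Rescaling gave 6 higher in neurites and 0 in soma (median 0.20), against 7746 and 230 of 12156 genes. The negative ratios turned positive for all of those named but Ep300. In both scalings the list median was below that of all genes, which was 0.01 before and 0.35 after rescaling. The count higher in soma was 2 without CTG0, without CTG480 or without the Kif1bβ tail, and 1 gene was called higher in neurites without CTG480. Rxra, a retinoid X receptor that pairs with the thyroid hormone receptor, had the highest ratio of the list, 0.87, without passing the test (adjusted p = 0.0932, limma), and 1.20 after rescaling, where it passed (adjusted p = 0.0153, limma). Of 29 other mRNAs known from axons, 7 were higher in neurites and 5 in soma (median 0.07), against 15.8% and 15.4% of all genes. The count higher in neurites was 4 without CTG480, without the Kif1bα tail or without the Kif1bβ tail, and rescaling gave 24 higher in neurites and 1 in soma. Among those called, the 4 with ratios of the largest size were all higher in soma, namely Hspa5 (−0.51) and Calr (−0.45), which encode chaperones of the endoplasmic reticulum, Tmsb10 (−0.49), which encodes an actin-binding peptide, and Stmn2 (−0.46), which encodes a tubulin-binding protein of growth cones. After rescaling, Hspa5 had −0.17 and was still called, while Calr (−0.11), Tmsb10 (−0.15) and Stmn2 (−0.12) did not pass the test.

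Genes next to Trp53inp2 on chromosome 2 showed ratios of either sign. In the RefSeq gene order Map1lc3a (0.44), Pigu (−0.64) and Mir695 precede it, and Ncoa6 (−0.22), Gm17959 and Gm14239 follow. Pigu encodes a subunit of the enzyme that attaches GPI anchors in the endoplasmic reticulum. Beside Trp53inp1, the cyclin gene Ccne2 had −0.36 and Ints8, of the Integrator complex, −0.01. Gm11827, Gm11829, Mir684-2 and A630034I12Rik, the others on its sides, were not analysed here, nor were Mir695 and the Gm genes.

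Likeness was measured over genes whose mean reached 20 TPM and is a description only. Over the 10 libraries, which share the division into fractions, the genes closest to Trp53inp2 were Sh3pxd2a, an invadopodia scaffold (Pearson's r = 0.99), Slc25a4, a mitochondrial ADP/ATP carrier (0.99), Cdc34, a ubiquitin-conjugating enzyme (0.98), Chmp3 of the ESCRT-III complex (0.98) and Dynll2, a dynein light chain (0.98). Of these, Sh3pxd2a came nearest to its size, with a localization ratio of 0.95. Closest to Trp53inp1 were Ppp3r1 (0.92), Mtch2 (0.90), Rab7 (0.90), Tomm34 (0.89) and Mrps18c (0.89), none of which was called between the fractions. Over the 5 localization ratios, too few to carry weight, the closest were Malat1, Wdtc1, Ing2, Alkbh3 and Rpa3 for Trp53inp2 and Ddah1, Actn1, Cdc40, Phf12 and Ccnb2 for Trp53inp1.

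Values of named genes summed to 849069 to 887258 per neurite library and 1044111 to 1159192 per soma library, and the read depth is unknown because the table holds no counts. All 5 nuclear RNAs tested were lower in neurites, among them Airn (−1.01), Xist (−0.88), Kcnq1ot1 (−0.83) and Malat1 (−0.43). After rescaling 3 of them were called, and Malat1 (−0.10) and Neat1 (−0.0030) were not. Of 14 N2A neuroblastoma markers 12 were present, summing to 1527 to 1606 TPM in neurites and 1580 to 1680 TPM in soma, of which Uchl1 (0.34) and Tubb3 (0.12) were higher in neurites and Chgb (−1.08), Chga (−0.47), Stmn2 (−0.46) and Hand2 (−0.15, but 0.18 after rescaling) higher in soma. Among all genes 15.8% were higher in neurites and 15.4% higher in soma. The count of these markers higher in neurites was 1 whichever transfection was left out. Rescaling gave 6 markers higher in neurites and 1 in soma, against 7746 and 230 of 12156 genes. Markers of other cell types were low. Their sums per library were at most 3.79 TPM in neurites and 4.07 TPM in soma for glia (1 of 6 present), 2.56 and 4.38 TPM for fibroblasts (2 of 6), 2.48 and 3.16 TPM for muscle (2 of 5), 4.14 and 3.69 TPM for endothelium (1 of 4), and 1.78 and 0.88 TPM for epithelium (1 of 4), and 0 of 5 blood markers were present. The fibroblast marker Pdgfra was called, with a ratio of −1.08.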

How the data were processed

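Soma and neurite RNA of 5 transfections of N2A cells, depleted of ribosomal RNA, was sequenced in 10 libraries. The deposited signal values are linear TPM that the authors made with bcl2fastq 2.20, kallisto 0.43.0 (RefSeq, mm10) and cyclic loess normalization, which evens out general differences between libraries. Transcript values were added up by gene. Genes whose mean reached 1 TPM were compared on log2(TPM + 0.1), a scale that understates changes of low genes, with limma 3.58.1 in R 4.3.3 (both-sided, Benjamini-Hochberg over all genes, called under 0.05, variance trend on the mean log2 level in every fit). Transfection was a block between fractions, since both came from the same wells. Deviations of same-transfection libraries correlated at −0.06 to 0.04 and those of other pairs at −0.06 to 0.08. The p-values rest on the spread among transfections that differ in plasmid, without replicates of any. The fit was tested on simulated data.

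Models of GENCODE on GRCm38 were found for 93.6% of transcripts at the same minimum and for all 3 member rows. Neighbors came from RefSeq on GRCm38.p6. The 5 plasmid rows, 3 rows without a gene name and a second deposited table of the authors' log2 ratios were not used. Members, gene lists and the rule for named genes (all partners, the 4 largest called members of each list, 3 neighbors a side, the 5 likest genes by each measure) were chosen with earlier results of these data known. Python 3.11.15 with numpy 2.4.6 and pandas 2.3.3 made the other calculations.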

Additional observations from a re-analysis of the deposited data

Results flagged for a closer look

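The transcript NM_021897 of Trp53inp1 was flagged because its localization ratio took opposite signs in the kinds of plasmid. The mean was 0.24 with the 3 kinesin tails, at 0.57 for Kif1bβ, 0.08 for Kif1bα and 0.055 for Kif1c. With the 2 DMPK fragments it was −0.71, at −1.14 for CTG0 and −0.28 for CTG480. The difference between the kinds, 0.95, was not called by limma over single transcripts (adjusted p = 0.989), and the gene sum did not show it. The other row, NM_001199105, had a difference of −0.61. Among the 12 sets of 5 values examined for both genes and the Trp53inp1 transcripts, no library stood apart by the ratio of its gap to the range.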

How the results depend on the processing

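Rescaling to a common sum of 1000000 raised the localization ratio to 1.46 for Trp53inp2 and 0.45 for Trp53inp1, with 7746 genes called higher in neurites and 230 higher in soma. By single transcripts the Trp53inp1 ratio was −0.14 for NM_021897 and 0.53 for NM_001199105. With 1 transfection left out, the ratio ran from 1.08 to 1.15 for Trp53inp2 and from 0.06 to 0.16 for Trp53inp1, and the calls from 1174 (without CTG480; 1215 without the Kif1bβ tail) to 1648 higher in neurites and from 1332 to 1651 higher in soma. Without the replicate block, the ratios were again 1.12 and 0.12, and 2142 and 2058 genes were called.

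Between transfections neither gene passed the test under any alternative run (limma adjusted p of 0.536 or more). Several differences changed sign: the Trp53inp1 level, perturbed minus control (0.40 for NM_021897, −0.11 to 0.013 leaving out 1 transfection); the ratio, kinesin tails minus DMPK fragments (−0.61 for NM_001199105; −0.11 to 0.10 for Trp53inp1 and −0.0069 to 0.13 for Trp53inp2 leaving out 1); and the level in that division (after rescaling −0.036 for Trp53inp2 and −0.0019 for Trp53inp1, −0.44 for NM_001199105, and −0.041 to 0.10 for Trp53inp2 and −0.07 to 0.17 for Trp53inp1 leaving out 1). Leaving out 1 transfection gave 0 to 1 called genes for the ratio and 0 to 1 for the level between perturbed and control, and 0 to 12 for the ratio and 0 to 3 for the level between kinds of plasmid. The cause was not tested. With read depth unknown, no counting error could be given for the low Trp53inp1 rows.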
